A study of Mus musculus with 2 samples.

Results

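The Notch pathway genes described here are 10 listed members, the receptors Notch1, Notch2 and Notch3, the ligands Dll1, Dll4, Jag1 and Jag2, and the target genes Hes1, Hey1 and Heyl. Members were chosen by name, as the probe sets annotated with exactly 1 symbol equal to a listed gene. The rule uses no signal, but the list was drawn up with earlier results of these data known. All 10 members had such a probe set, 19 in all, out of 18193 genes on the array that had a probe set with a single symbol. RNA came from cells of Col2a1-Venus-Tg mouse embryos on a C57Bl/6 background, that a flow sorter had split into Venus-positive cells and Venus-negative cells. Both groups carry the same transgene, in which Venus, a modified green fluorescent protein, labels chondrocytes, the cells that make cartilage. Each group was measured on 1 Affymetrix mouse array, so n = 1 per group throughout and no difference has a replicate error or a test. No source used here gives the embryos' age, their number or the gates of the sort, and the reporter marks cells by a Col2a1 construct and not by their position or maturity in cartilage.

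Notch receptors are transmembrane proteins that bind Delta-like and Jagged ligands on neighbouring cells. Binding lets ADAM proteases and then gamma-secretase cut the receptor, and its freed intracellular part enters the nucleus, joins the DNA-binding protein Rbpj and a Mastermind coactivator, and switches on Hes and Hey genes, which encode basic helix-loop-helix repressors. In the mouse limb skeleton the pathway is known for restraining early cartilage differentiation and for a part in chondrocyte maturation, and it is also active in blood vessels, skeletal muscle progenitors, epithelia and the nervous system.

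Values are MAS5 signals, linear array intensities of 1 probe set, and a difference is always between the 2 arrays for the same probe set or the same sum of probe sets. A floor of 22.5, the median of all non-control signals, stood in for detection calls. A probe set counted as measured if either array, or both, reached the floor, and signals below the floor were set to it before the log2 ratio (Venus-positive signal over Venus-negative signal) was taken, so that such a fold is a lower bound. The gene's ratio is that of its brightest measured probe set, by the mean log2 signal of both arrays. The Venus-positive array was dimmer, with a trimmed mean signal of 109, against 133 for the other array. Over the 11789 measured genes the log2 ratio had a median of -0.33. The 9 spiked hybridisation control probe sets had a median log2 ratio of -0.27. A "relative" log2 ratio has the median gene's -0.33 subtracted. The labelled cell type was checked against 7 cartilage markers, which were all at least 2-fold higher in Venus-positive cells, with a lowest log2 ratio of 2.24 for Sox9 (1601 in Venus-positive cells, against 338 in Venus-negative cells). They include Col2a1, whose reporter was the basis of the sort, so that its level is no independent finding.

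Of the 10 members, 9 were measured. In Venus-positive cells Jag1 and Notch3 were lower by at least 2-fold, no member was higher by that size on the deposited scale, and Hes1 was the only measured member with a higher signal there on that scale (other array scalings also put Dll1, Jag2 or Notch2 slightly above 0). The 2 lower members of 9 stand beside a background of 11.6% of all measured genes at least 2-fold lower, and the 0 of 9 higher beside 2.79%. On the relative scale Hes1 was at least 2-fold higher, beside 5.06% of measured genes, and Jag1 and Notch3 were again lower by that size, beside 6.45%. The members' median log2 ratio was -0.42 (relative -0.09), against -0.33 (relative 0.00) for all measured genes, so 3 members lay above and 6 below the median gene. The median of -0.42 is the value of Heyl, a bound, since its Venus-positive signal was below the floor. The members' log2 ratios ranged from -1.57 to 0.72, while those of all measured genes ranged from -4.52 to 6.31.

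**Figure D1:**
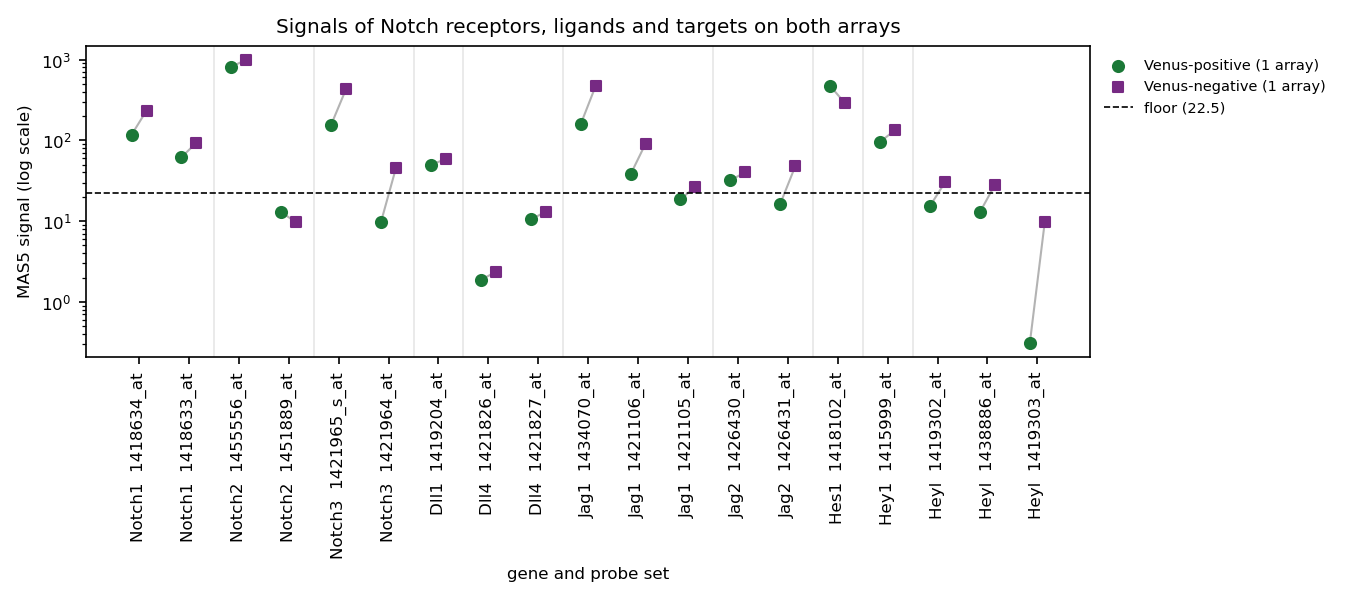
MAS5 signal (log axis) of all 19 member probe sets, with the Venus-positive array as a circle left of the Venus-negative array as a square and the floor of 22.5 dashed. Hes1 slopes down from the Venus-positive to the Venus-negative array, Notch3 and the brighter Jag1 probe sets slope up, and both Dll4 probe sets lie under the floor.

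The promoter sequences of Notch3 and Jag1, the members at least 2-fold lower on both scales, and of Notch1, the next lowest, are shown because these 3 members had the lowest ratios. The choice was made after their values were seen. Each sequence is the RefSeq window of 250 bases before to 50 bases after the annotated start, build GRCm38.p6, printed 5′ to 3′ along the gene's minus strand. Capitals mark matches on either strand to the N-box CACNAG, a motif that Hes1 is known to bind, or to the E-box CANNTG, the general motif of basic helix-loop-helix proteins. The windows are chr17:32166841-32167140 for Notch3, chr2:137116471-137116770 for Jag1 and chr2:26503773-26504072 for Notch1.
Notch3: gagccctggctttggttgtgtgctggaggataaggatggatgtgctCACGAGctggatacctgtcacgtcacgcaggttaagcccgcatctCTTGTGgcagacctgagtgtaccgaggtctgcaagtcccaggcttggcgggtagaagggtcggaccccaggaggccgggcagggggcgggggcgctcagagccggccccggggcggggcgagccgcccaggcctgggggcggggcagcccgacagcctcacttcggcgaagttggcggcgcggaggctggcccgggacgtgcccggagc
Jag1: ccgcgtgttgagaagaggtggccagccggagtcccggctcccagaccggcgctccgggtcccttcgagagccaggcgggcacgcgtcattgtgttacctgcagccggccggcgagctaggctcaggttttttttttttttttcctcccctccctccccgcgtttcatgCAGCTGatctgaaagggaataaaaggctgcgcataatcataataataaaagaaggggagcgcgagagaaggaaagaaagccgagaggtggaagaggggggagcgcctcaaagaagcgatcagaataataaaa
Notch1: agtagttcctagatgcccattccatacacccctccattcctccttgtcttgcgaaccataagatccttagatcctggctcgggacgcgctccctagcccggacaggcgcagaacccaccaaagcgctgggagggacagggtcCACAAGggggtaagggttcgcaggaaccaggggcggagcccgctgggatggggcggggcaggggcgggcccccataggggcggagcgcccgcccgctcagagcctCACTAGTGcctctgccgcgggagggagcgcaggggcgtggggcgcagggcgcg

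The Notch3 window held 2 matches to CACNAG and none to CANNTG, the Jag1 window 1 match to CANNTG and none to CACNAG, and the Notch1 window 3 matches to CACNAG, of which an adjoining pair on opposite strands overlaps. Promoter windows were found for the 7 receptor and ligand members, 8 windows in all, since Dll1 had a pair. The promoters of Hes1, Hey1 and Heyl were not analysed here. Of these 8 windows 5 held CACNAG and 3 held CANNTG, while 42.5% and 72.3% of the 32851 windows in the table did so. The Rbpj motif GTGGGAA and its core TGGGAA, which the longer motif contains, matched none of these 8 receptor and ligand windows on either strand, against 6.38% and 25.6% of all windows. The search for the Rbpj motif and its core had been planned for the promoters of Hes1, Hey1 and Heyl only. Its use on these receptor and ligand windows was chosen later, as were the N-box and E-box. Base composition differed among the 3 printed windows, with 70.0% G and C for Notch3, 55.7% for Jag1 and 68.3% for Notch1. A match or its absence describes these letters only.

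Among the receptors, Notch3 had the lowest ratio. Notch3 encodes the receptor best known from vascular smooth muscle and pericytes. Its brighter probe set, 1421965_s_at, had a signal of 156 in Venus-positive cells, against 433 in Venus-negative cells, 2.77-fold lower (log2 ratio -1.47, relative -1.14), and 5.10% of measured genes had a lower ratio. The second probe set, 1421964_at, had 9.83 in Venus-positive cells, below the floor, against 45.8 in Venus-negative cells, at least 2.03-fold lower. Both Notch3 probe sets were thus lower by at least 2-fold on the deposited scale. The name of the first, ending in _s_at, marks probes that can match several transcripts, and without it the gene's log2 ratio was -1.02, which is a bound.

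Notch1, a receptor used in endothelium, muscle progenitors and many other tissues, lay at the edge of the 2-fold size. Probe set 1418634_at had 117 in Venus-positive cells, against 233 in Venus-negative cells, a log2 ratio of -0.998 and thus just short of 2-fold lower (relative -0.67). Probe set 1418633_at had 61.7 in Venus-positive cells, against 93.6 in Venus-negative cells, 1.52-fold lower. Both Notch1 probe sets were lower in Venus-positive cells by more than the median gene.

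Notch2, a broadly expressed receptor that is known in mouse cartilage and bone, was close to the median gene. Probe set 1455556_at had 814 in Venus-positive cells, against 996 in Venus-negative cells, 1.22-fold lower on the deposited scale with a log2 ratio of -0.29, and the sign turned on the relative scale (0.04). Its other probe set, 1451889_at, was below the floor on both arrays, at 12.9 in Venus-positive cells and 9.61 in Venus-negative cells. The receptors therefore ranged from Notch2 near the median gene, over Notch1, to Notch3, a span of relative log2 ratios of 0.04 to -1.14 that has no replicate error.

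**Figure D2:**
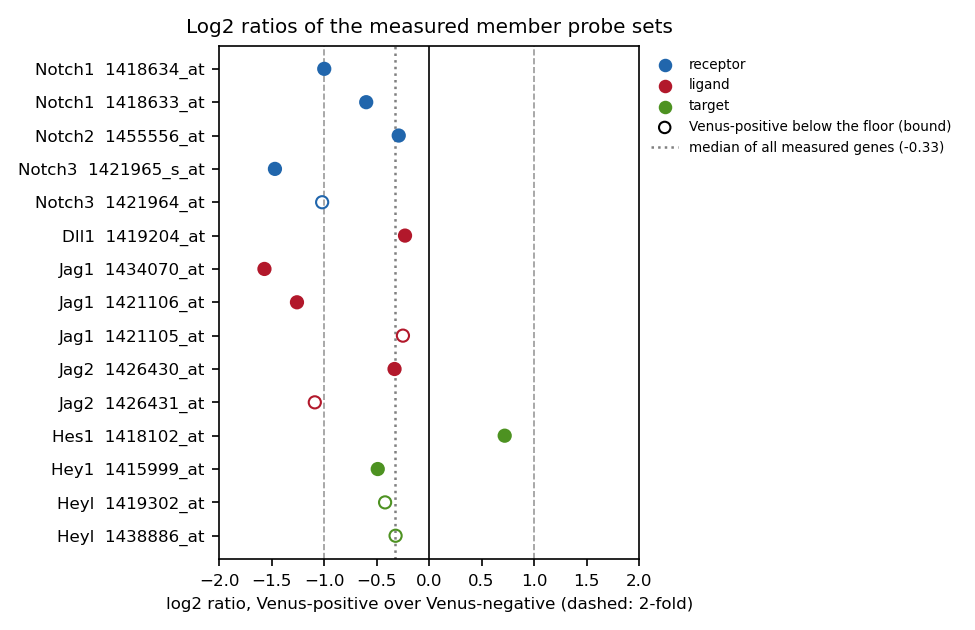
Log2 ratio (Venus-positive signal over Venus-negative signal) for the 15 measured member probe sets, coloured by role, with 2-fold dashed and the median gene dotted; open circles are bounds with the Venus-positive signal below the floor. Of the 15, 14 lie below 0, 5 at or past 2-fold lower, and the open circles could only lie below 0. Hes1 alone lies above 0 on this deposited scale, while Dll1, Jag2 or Notch2 join it under some other scalings.

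Jag1 had the lowest ratio of the measured members by its brightest probe set, while by the mean over probe sets Notch3 was lowest (log2 ratio -1.25, against -1.03 for Jag1). It encodes a Jagged ligand with known roles in vascular smooth muscle, epithelia and skeletal progenitors. Probe set 1434070_at had 158 in Venus-positive cells, against 471 in Venus-negative cells, 2.98-fold lower (log2 ratio -1.57, relative -1.24), and 4.29% of measured genes had a lower ratio. Probe set 1421106_at had 37.9 in Venus-positive cells, against 90.9 in Venus-negative cells, 2.40-fold lower. The dimmest, 1421105_at, had 18.6 in Venus-positive cells, below the floor, against 26.7 in Venus-negative cells, at least 1.19-fold lower. All 3 Jag1 probe sets were lower in Venus-positive cells, and the size rests on the brighter pair, since the third could show little with a Venus-negative signal so close to the floor. The log2 ratios of the 3 probe sets had a standard deviation of 0.69, which holds no error between samples.

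Jag2, the other Jagged ligand, gave probe sets of unequal size. Probe set 1426430_at had 32.0 in Venus-positive cells, against 40.3 in Venus-negative cells, 1.26-fold lower and at the median gene (relative 0.00). Probe set 1426431_at had 16.4 in Venus-positive cells, below the floor, against 47.8 in Venus-negative cells, at least 2.12-fold lower. Jag2 was therefore lower on both probe sets of the deposited scale, by an amount that depends on the probe set, and with quantile normalization the first had a log2 ratio of 0.11.

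Dll1, the Delta-like ligand of somites and neural progenitors, had 49.8 in Venus-positive cells, against 58.7 in Venus-negative cells, on its only probe set, a log2 ratio of -0.23 that was above 0 under all 4 alternative scalings (relative 0.10). Dll4, the ligand of sprouting endothelium, was below the floor on both arrays. Probe set 1421827_at had 10.5 in Venus-positive cells and 13.0 in Venus-negative cells, and 1421826_at had 1.88 and 2.34 in the same order, so no fold is given. Dll4 was not detectable above the floor in either fraction, which does not show that it was absent.

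The target genes differed in direction on the deposited scale. Hes1, a repressor induced by Notch and also by other signals, had 471 in Venus-positive cells, against 286 in Venus-negative cells, on its only probe set, 1418102_at. That is 1.64-fold higher (log2 ratio 0.72, relative 1.05), and 95.3% of measured genes had a lower ratio. The array scaling thus decides whether Hes1 reaches the 2-fold size. Its log2 ratio was above 0 under all 9 alternatives tried, but these were a weak check of its direction. The changed floors, the mean over probe sets and leaving out _x_at and _s_at probe sets could not change it (0.718 each). Hes1 has a single probe set, with both signals above these floors. The array scalings all raised it (0.986 to 1.050). The alternative without any floor gave 0.688 and could shrink the ratio but not turn its sign.

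Hey1, a repressor of the Hey branch, had 95.5 in Venus-positive cells, against 134 in Venus-negative cells, 1.41-fold lower with a relative log2 ratio of -0.16. Heyl, the Hey gene known from pericytes, smooth muscle and muscle progenitors, was below the floor in Venus-positive cells on all 3 of its probe sets. Probe set 1419302_at had 15.4 in Venus-positive cells, against 30.1 in Venus-negative cells, at least 1.34-fold lower, and 1438886_at had 12.9 in Venus-positive cells, against 28.1 in Venus-negative cells, at least 1.25-fold lower. The third, 1419303_at, was below the floor on both arrays, at 0.308 in Venus-positive cells and 9.80 in Venus-negative cells. Both measured Heyl probe sets were only just above the floor in Venus-negative cells, so this floor limits the size of their bounds, and a floor at the 25th percentile gave a log2 ratio of -0.96 for Heyl. Hes1 thus differed in direction from Hey1 on the deposited scale. Both measured Heyl probe sets reached the floor on the Venus-negative array alone, so their log2 ratios could only be below 0.

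**Figure D3:**
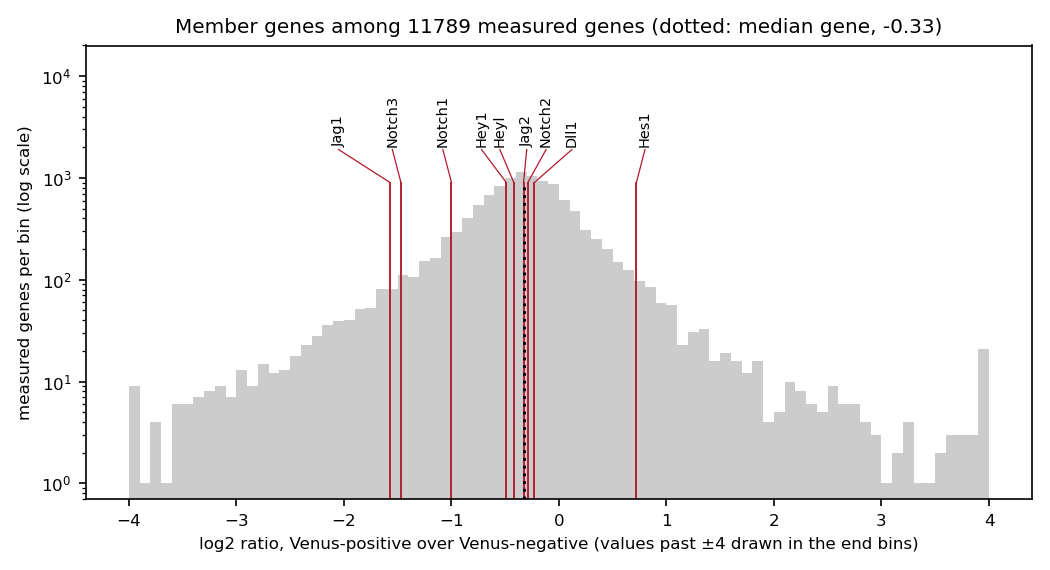
Histogram of the log2 ratio (Venus-positive signal over Venus-negative signal) for the 11789 measured genes (log count axis), with the 9 measured members as vertical lines and the median gene, -0.33, dotted. Jag1 and Notch3 lie in the lower tail, Hes1 in the upper shoulder, and Hey1, Jag2, Notch2 and Dll1 close to the median gene. The line of Heyl is drawn close to it too, but is a bound with the Venus-positive signal below the floor.

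Counted over probe sets, 15 of the 19 were measured, and 10 of these were at or above the floor on both arrays. Of the 15 measured, 14 had a log2 ratio below 0, and 77.3% of all measured probe sets did so on this dimmer array. Member probe sets that reached the floor on the Venus-negative array alone could only have a log2 ratio below 0. Relative to the median gene 10 of the 15 were lower. On the deposited scale 5 of the 15 were at least 2-fold lower, namely a pair each of Jag1 and Notch3 and 1 of Jag2, beside 10.2% of the 21102 measured probe sets. Of these, the dimmer Notch3 probe set and that of Jag2 reached the floor on the Venus-negative array alone. On the relative scale 2 were at least 2-fold lower, beside 5.32%, and 1, of Hes1, at least 2-fold higher, beside 4.63%. Probe sets of 1 gene share their target and both RNA samples and are not replicates.

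Most other genes of the pathway lay near or below the median gene. The list holds 51 genes, chosen with earlier results of these data known, of which 46 had a probe set with a single symbol and 40 were measured. Of the 40, Venus-positive cells had 9 lower and none higher by at least 2-fold, beside the 11.6% and 2.79% of all measured genes, with a median log2 ratio of -0.46 (relative -0.13), and on the relative scale 8 were lower by that size, beside 6.45%. Below the median gene lay 27 of the 40.

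Among other receptors and ligands, Notch4, the endothelial receptor, had 24.4 in Venus-positive cells, against 63.9 in Venus-negative cells, 2.62-fold lower on its only measured probe set of 3, a size that it did not reach with quantile normalization or with log2(signal + 16), and it was not measured with the 75th percentile floor. Dner, a transmembrane Notch ligand of neurons, was below the floor in Venus-positive cells (17.7), against 173 in Venus-negative cells, at least 7.69-fold lower, and its second probe set was at least 5.87-fold lower. Egfl7, a secreted endothelial protein that binds Notch receptors, had 40.8 in Venus-positive cells, against 103 in Venus-negative cells, 2.53-fold lower, and its 4 probe sets had log2 ratios from -1.59 to -0.31. Dlk1, a non-canonical ligand of progenitor cells, was named after its values were seen, because it had the largest log2 ratio of the list. Its signals were 2061 in Venus-positive cells and 1529 in Venus-negative cells on 1449939_s_at (log2 ratio 0.43), and 108 in Venus-positive cells and 43.0 in Venus-negative cells on 1442724_at (log2 ratio 1.33).

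The steps between ligand and nucleus differed by gene. Adam10, which encodes the protease that makes the first ligand-induced cut, had 550 in Venus-positive cells, against 1447 in Venus-negative cells, 2.63-fold lower, and a second measured probe set was 2.18-fold lower. Psen2, a catalytic subunit of gamma-secretase, had 42.9 in Venus-positive cells, against 109 in Venus-negative cells, 2.54-fold lower on its only measured probe set. The other 6 measured cleavage genes were not at least 2-fold lower by their brightest probe set, but the second probe set of Aph1b, a gamma-secretase subunit gene named after its values were seen, was 2.38-fold lower. Of the fringe genes, whose glycosyltransferases set which ligands a receptor answers, Mfng was below the floor in Venus-positive cells (18.8), against 56.3 in Venus-negative cells, at least 2.50-fold lower, though its relative log2 ratio, -0.99, was just short of 2-fold. Lfng had 29.0 in Venus-positive cells and 36.9 in Venus-negative cells, and Rfng had 173 and 235 in the same order, with relative log2 ratios of -0.01 and -0.11.

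Rbpj, the DNA-binding partner of the cleaved receptor, was close to the median gene on all 3 probe sets. The brightest had 330 in Venus-positive cells, against 421 in Venus-negative cells, a relative log2 ratio of -0.02, and the lowest relative log2 ratio of the 3 was -0.17. By its brightest probe set, none of the 5 measured genes of the nuclear complex was at least 2-fold higher or lower. On the deposited scale 2.79% of all measured genes were higher and 11.6% lower by that size. Snw1, a gene of this complex named after its values were seen, had probe sets that differed in direction. Its dimmest had 70.8 in Venus-positive cells and 44.4 in Venus-negative cells (log2 ratio 0.67, relative 1.01), against a log2 ratio of -0.31 for its brightest. Dtx4, a Deltex ubiquitin ligase, had 29.6 in Venus-positive cells, against 157 in Venus-negative cells, 5.30-fold lower, but its second probe set had 16.3 in Venus-positive cells and 24.3 in Venus-negative cells, at least 1.08-fold lower.

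Nrarp and further listed Hes and Hey genes were lower in Venus-positive cells, or near or below the floor. Nrarp, a feedback inhibitor that Notch induces, had 29.0 in Venus-positive cells, against 91.1 in Venus-negative cells, 3.14-fold lower (relative -1.32), on its only measured probe set. Hes6, a Hes relative of neural and muscle differentiation that is known to oppose Hes1 and is not a typical Notch target, had 108 in Venus-positive cells, against 296 in Venus-negative cells, 2.74-fold lower, and its second probe set was 2.82-fold lower. Hey2, the Hey gene of heart and arteries, had 4.25 in Venus-positive cells, below the floor, against 26.4 in Venus-negative cells, at least 1.17-fold lower. Hes2, Hes3, Hes5 and Hes7 were below the floor on both arrays. Hes1 was thus the only measured gene among the listed Hes and Hey genes with a higher signal in Venus-positive cells. The values of Hey2 and Heyl are bounds that could only lie below 0, since only their Venus-negative signals reached the floor.

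**Figure D4:**
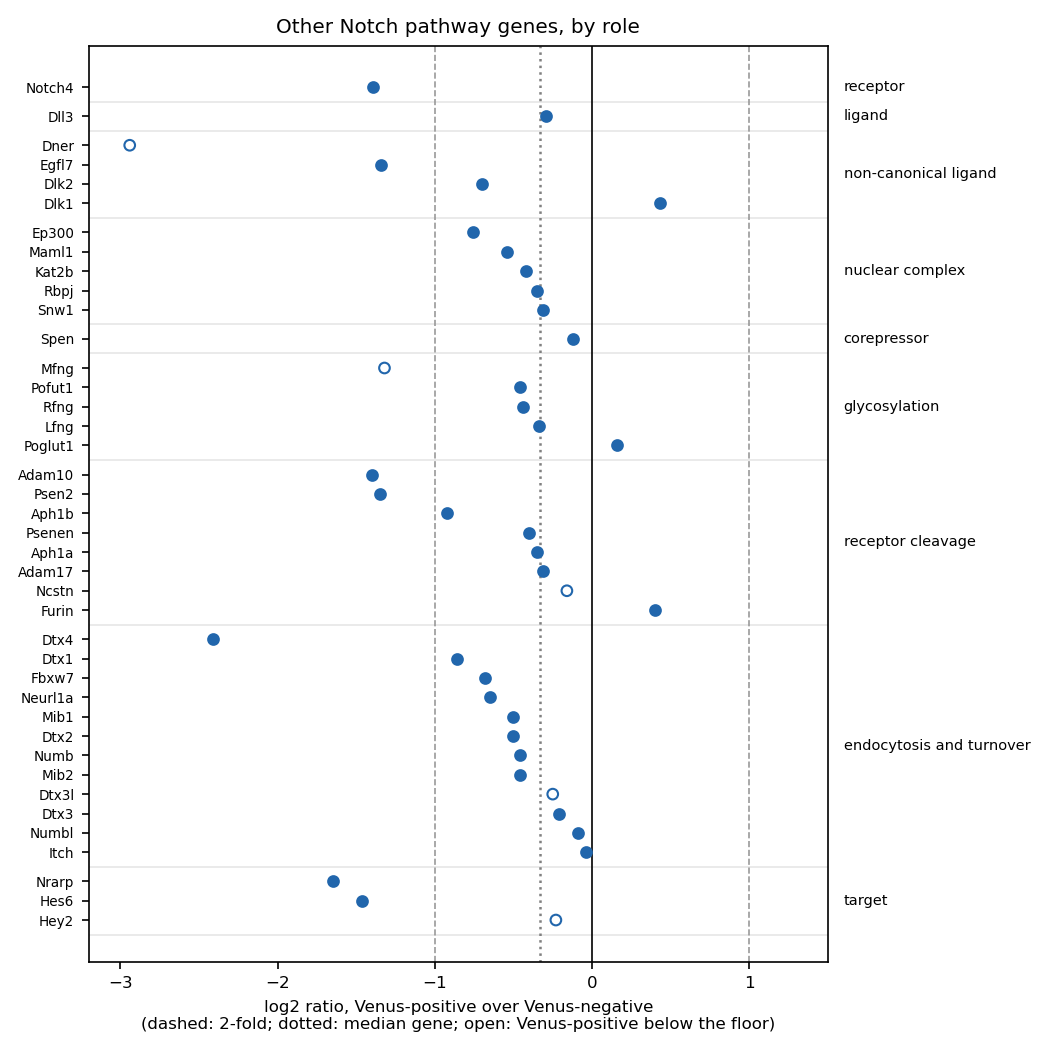
Log2 ratio (Venus-positive signal over Venus-negative signal) for the 40 measured other pathway genes, grouped by role, with 2-fold dashed, the median gene dotted and bounds open. The 9 genes past 2-fold lower are Notch4, Dner, Egfl7, Mfng, Adam10, Psen2, Dtx4, Nrarp and Hes6, and no gene lies past 2-fold higher.

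Markers of cell types in which several members are known to be used were mostly lower in Venus-positive cells. In bulk RNA, fewer cells of a type and less RNA per cell cannot be told apart. Marker counts are on the deposited scale, where 11.6% of all measured genes were at least 2-fold lower. They use each gene's brightest probe set. Some markers counted as lower had another probe set short of that size, such as Rgs5 (-0.41), Abcc9 (-0.39) and Pax7 (-0.41). Of the 12 endothelial markers 11 were measured and 9 were at least 2-fold lower, with a summed signal of 578 in Venus-positive cells and 1346 in Venus-negative cells. Pecam1, Tek, Tie1, Plvap, Sox17 and Cldn5 were below the floor in Venus-positive cells, and Tie1 was below it in Venus-negative cells too. Erg, at 375 in Venus-positive cells and 269 in Venus-negative cells, makes up most of the Venus-positive sum and went the other way. In the smooth muscle and pericyte list 5 of 9 were at least 2-fold lower and Cspg4 higher, with sums of 1607 in Venus-positive cells and 3876 in Venus-negative cells, and Abcc9, Cnn1, Kcnj8 and Myh11 were below the floor in Venus-positive cells. Cspg4 makes up most of the Venus-positive sum, at 896 in Venus-positive cells, against 70.8 in Venus-negative cells. Acta2 makes up most of the Venus-negative sum, at 173 in Venus-positive cells, against 1999 in Venus-negative cells.

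All 8 skeletal muscle markers were at least 2-fold lower, with sums of 304 in Venus-positive cells and 4029 in Venus-negative cells, and Des, Myf5, Myh3, Myod1 and Pax7 were below the floor in Venus-positive cells. Actc1 makes up most of both sums, at 164 in Venus-positive cells, against 2268 in Venus-negative cells. Epithelial markers were at least 2-fold lower for 7 of 8 (sums 384 in Venus-positive cells and 1637 in Venus-negative cells, Krt14 and Trp63 below the floor in Venus-positive cells), and neural markers for 6 of the 7 measured (sums 255 and 1023 in the same order, Sox2 below the floor in Venus-positive cells and Pax6 on both arrays). Fibroblast and perichondrium markers were at least 2-fold lower for 5 of 6, with sums of 7497 in Venus-positive cells and 17677 in Venus-negative cells and Dpt below the floor in Venus-positive cells. Col3a1, the marker short of 2-fold, makes up most of both sums, at 6301 in Venus-positive cells and 10341 in Venus-negative cells. All 5 leukocyte and all 3 measured erythroid markers were at least 2-fold lower, with sums of 127 and 341 in Venus-positive cells, against 1481 and 4020 in Venus-negative cells, and Ptprc and Tyrobp below the floor in Venus-positive cells. Hbb-bh1 makes up most of both erythroid sums, at 253 in Venus-positive cells, against 2709 in Venus-negative cells. Csf1r, at 758, makes up most of the Venus-negative leukocyte sum. On the relative scale 7 of 8 skeletal muscle, 6 of 8 epithelial and 5 of 7 measured neural markers were at least 2-fold lower, beside 6.45% of all measured genes. The counts of the other lists did not change. The part of these cell types in the lower signals of Jag1, Notch3, Notch1 and the pathway genes was not tested.

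**Figure D5:**
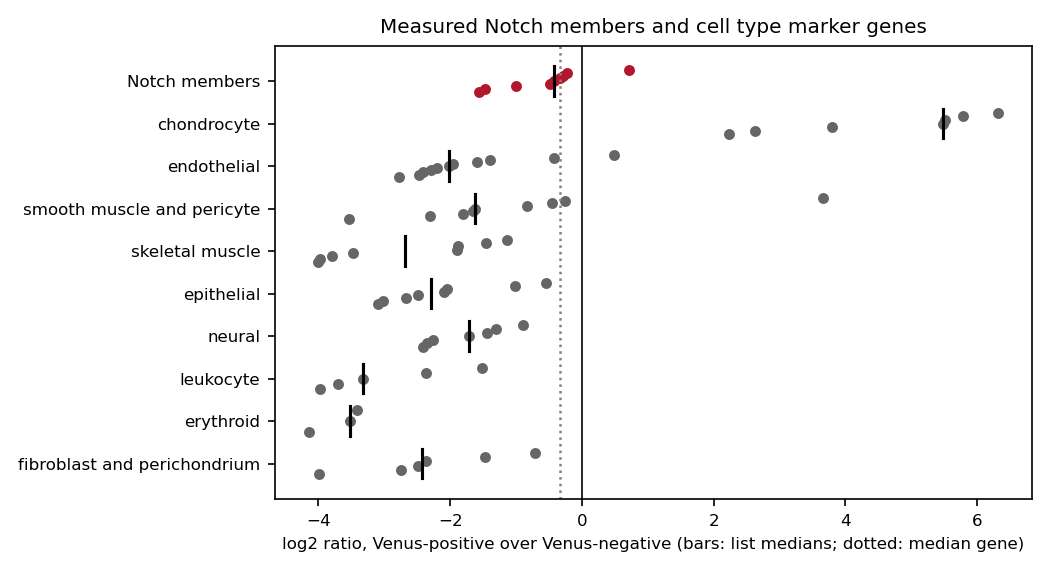
Log2 ratio (Venus-positive signal over Venus-negative signal) of the 9 measured Notch members and of the measured marker genes of 9 cell types, 1 point per gene, with list medians as bars and the median gene dotted. The Notch members' median of -0.42 lies near the median gene, the chondrocyte median at 5.48, and the medians of the other 8 lists between -3.52 and -1.63. Bounds are drawn like other points here, and the Notch members' median is the value of Heyl, a bound.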

How the data were processed

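Gene expression was measured on 2 arrays, 1 per sorted cell group, assigned by the cell type in the labels. Per the labels' protocols, biotinylated cRNA was made from 100 ng of total RNA. The deposited values are linear intensities, and MAS5 was the tool by which the authors made them, per the submitters' processing notes. Its version, its scaling target and any detection calls appear in no source used here. The table holds 45101 probe sets, of which 64 controls were set aside and 34945 carried 1 symbol in the platform annotation. No probe set named a member beside another symbol.

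Signals below 22.5 were set to it before log2 ratios were taken, and sizes of 2-fold were counted without a test. The number of arrays limits the precision. The members and gene lists were chosen with earlier results of these data known. Named were all members with all probe sets, and of the other pathway genes Notch4, Rbpj, Lfng, Mfng, Rfng, Hey2, Hes6 and each at least 2-fold higher or lower. Dlk1, Aph1b, Snw1, Hes2, Hes3, Hes5 and Hes7 were named in addition after their values were seen. With 2 arrays no gene can be named for a pattern like a member's. The 9 alternatives were 4 array scalings (centring on the median gene, quantile normalization, means trimmed by 2% at each end, hybridisation controls), a lower floor (25th percentile), a higher floor (75th percentile), log2(signal + 16) without any floor, the mean over probe sets, and leaving out _x_at and _s_at probe sets. Promoter sequences came from RefSeq, GRCm38.p6. Python 3.11.15, numpy 2.4.6 and pandas 2.3.3 were used. The procedure was tested on simulated data, with changes larger than that of any member planted in bright genes only. That test did not cover sizes near 2-fold or signals near the floor.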

Additional observations from a re-analysis of the deposited data

How the results depend on the processing

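Log2 ratios that shifted by 0.34 or more (the standard deviation between a gene's own probe sets, pooled over genes) and counts that changed by over 1.5 times were treated as moved. Centring subtracts the median gene's -0.33 from every log2 ratio, so under this rule it could move no log2 ratio. Dll1 (0.10) and Notch2 (0.04) still rose above 0 with it. Jag1 (log2 ratios -1.57 to -1.03) and Notch3 (-1.47 to -1.02) were at least 2-fold lower under all 9 alternatives, while Notch1 (-0.998 to -0.659) was under none of the 9. Each alternative changed a single setting. Among the probe sets of Jag1 and Notch3, only 1434070_at of Jag1 (-1.24) and 1421965_s_at of Notch3 (-1.14) were lower by that size on the relative scale. The count of members at least 2-fold higher was 1 in place of 0, the gene being Hes1, after centring on the median gene (1.05), quantile normalization (1.01) and scaling to the trimmed mean (1.005), and stayed at 0 with scaling to the hybridisation controls (0.99) and under the other 5 alternatives. Of the other pathway genes, 2 in place of 9 were at least 2-fold lower with the floor at the 75th percentile (114), where 25 were measured, and 6 with quantile normalization, without Notch4, Egfl7 and Psen2. Of the same genes 1 in place of 0, Dlk1, was at least 2-fold higher without _x_at and _s_at probe sets. Single values that moved were Dll1 (0.20), Jag2 (0.11) and Hey1 (-0.13) with quantile normalization, Heyl (-0.96) with the floor at the 25th percentile, Jag1 (-1.03) and Jag2 (-0.71) with the mean over probe sets, and Notch3 (-1.02) without _s_at probe sets. With 1 array per group no replicate could be left out. No paired analysis was possible because each group has 1 sample and the labels carry no replicate number.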
